A study of Mus musculus with 8 samples.

Results

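The genes of the translation initiation factors, together with Mcts1, its retrocopy Mcts2 and their partner Denr, were followed in ribosome-associated RNA of mouse midbrain dopaminergic neurons after the neurotoxin MPTP. The set took every gene whose symbol starts with Eif and a digit, left out the eIF2 kinases (Eif2ak), and added Mcts1, Mcts2 and Denr by name, which gave 53 of the 21761 genes in the deposited table. MPTP-treated C57BL/6 mice (4 libraries) had received MPTP-HCl, 30 mg/kg of free base, once a day for 5 days by the intraperitoneal route. Control C57BL/6 mice (4 libraries) had received saline on the same schedule. In both groups tissue was taken 4 days after the last injection. RNA was obtained by translating ribosome affinity purification (TRAP), in which a tagged ribosomal protein made in one cell type lets its ribosomes and their RNA be pulled down. The labels give the midbrain as the source of the neurons, and the deposited table is named for SN. They do not name the promoter that drives the tag, the age of the mice or whether animals were pooled. In bulk RNA of this kind, fewer cells of a type and less RNA per cell cannot be told apart.

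Translation of most messenger RNAs begins when eIF4F (the cap-binding protein eIF4E, the scaffold eIF4G and the helicase eIF4A) recruits a small ribosomal subunit. That subunit carries eIF1, eIF1A, eIF3, eIF5 and the initiator tRNA held by eIF2. eIF2 must then be recharged with GTP by eIF2B, the step that the stress kinases block. MCTS1 and DENR form a heterodimer that binds the small subunit after termination, helps to remove the spent tRNA, and allows ribosomes that have translated a short upstream reading frame to start again. eIF2D joins the same domains in a single chain. Mcts2 arose from Mcts1 by retrocopying.

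Whether reads of Mcts1 and Mcts2 can be told apart bears on every value of the pair, so the first 120 coding bases of each, from the GENCODE vM21 transcripts on GRCm38, are shown 5′ to 3′ with the bases that differ between them in capitals.
Mcts1: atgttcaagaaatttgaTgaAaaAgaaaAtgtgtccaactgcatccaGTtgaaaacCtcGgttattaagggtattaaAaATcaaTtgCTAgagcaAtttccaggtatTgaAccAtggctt
Mcts2: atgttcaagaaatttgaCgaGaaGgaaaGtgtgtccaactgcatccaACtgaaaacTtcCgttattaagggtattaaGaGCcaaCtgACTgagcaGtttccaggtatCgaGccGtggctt
In this stretch 19 bases differ. Over the whole coding sequences (543 bases each, without the stop codon) 81 differ, an identity of 85.1%, and 63 of the differences fall on the third base of a codon. The longest run without a difference is 29 bases, against a read length of 100 bases. Of the 684 windows of 100 bases in the RefSeq-matched Mcts1 transcript, 0 lay within 2 mismatches of Mcts2, and 0 of the 813 windows of Mcts2 lay within 2 mismatches of Mcts1. The same 0 held for the 1568 windows over all 5 GENCODE transcripts of Mcts1. A full-length read of one gene is therefore separable from the other by sequence. Mcts1 lies on the plus strand of chromosome X (38600578 to 38613426). Mcts2 lies on the plus strand of chromosome 2 (152687035 to 152687946), inside the span of H13, and overlaps no exon of it or of any other gene.

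Library totals ran between 66450856 and 78892061 counts in MPTP and between 54192354 and 69333470 counts in saline. Dopaminergic neuron markers were abundant in every library: the summed level of 18 such genes was between 9767 and 11600 CPM (counts scaled to a common library size after TMM) in MPTP and between 8806 and 14593 CPM in saline. Markers of other cells were present too. The 12 oligodendrocyte markers summed to between 1200 and 1386 CPM in MPTP and between 829 and 1755 CPM in saline, and the 12 astrocyte markers to between 666 and 737 CPM in MPTP and between 579 and 770 CPM in saline. The 12 microglia markers summed to at most 69.4 CPM, the 10 endothelial markers to at most 22.4 CPM, and no marker of any list was at 0 in every library. No marker was called; the log2 fold change was above 0 for 12 of 12 astrocyte, 11 of 12 oligodendrocyte, 8 of 12 microglia, 3 of 10 endothelial, 5 of 6 GABAergic or glutamatergic neuron and 3 of 18 dopaminergic markers. The library saline 3 stood apart from saline 1, 2 and 4. It had the lowest dopaminergic sum and the highest oligodendrocyte and astrocyte sums of all 8 libraries, and on the first principal component (20.5% of the variance) it lay at -24.1, beside the MPTP libraries (-23.0 to -15.3) and away from the other saline libraries (26.9 to 38.9). Results are therefore also given without it. Leaving out the saline library nearest to MPTP tends to widen the contrast by that choice alone. With all 8 libraries 17 genes were called (edgeR adjusted p under 0.05), against 297 without saline 3. Smaller adjusted p-values without it are therefore no added support for a difference.

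Mcts1 fell in MPTP, and of the 52 tested initiation factor genes it alone passed the threshold (adjusted p under 0.05). Mcts1 was already known from earlier results of these data to have passed, so its call is no finding about the set. A gene that did not pass is not shown to be unchanged. Mcts1 had 31.8, 32.5, 26.1 and 27.7 CPM in MPTP replicates 1 to 4 and 48.3, 49.0, 40.9 and 42.6 CPM in saline replicates 1 to 4. The groups did not overlap, with a gap between the highest MPTP library and the lowest saline library, which was saline 3. The counts behind these values were 2608, 2348, 1766 and 2094 in MPTP and 3160, 3276, 2577 and 2241 in saline, so counting error is small beside the spread between libraries. MPTP libraries averaged 29.6 ± 3.09 CPM (SD, n = 4) and saline libraries 45.2 ± 4.05 CPM (SD, n = 4). The fitted log2 fold change was -0.61 (95% interval -0.83 to -0.39, SE 0.10, adjusted p = 0.0260 by edgeR's quasi-likelihood test with Benjamini-Hochberg adjustment over 15999 genes). MPTP libraries thus held 0.654 times the saline level. Of all 15999 tested genes 0.106% passed the same threshold in either direction and 0.0313% passed as lower.

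Denr, the partner in the heterodimer, showed no such separation. Denr had 48.5, 44.8, 56.0 and 52.3 CPM in MPTP and 59.7, 62.7, 48.9 and 52.5 CPM in saline, with overlapping groups. The fitted difference was -0.15 on the log2 scale (adjusted p = 0.702, SE 0.10). The 95% interval was -0.37 to 0.07. The retrocopy Mcts2 had 14.1, 17.2, 14.3 and 15.7 CPM in MPTP and 17.7, 18.8, 14.4 and 15.4 CPM in saline, again overlapping (log2 fold change -0.11, 95% interval -0.39 to 0.16, adjusted p = 0.841). Eif2d, the single-chain relative, had 46.0, 44.9, 34.4 and 49.5 CPM in MPTP and 40.9, 41.4, 41.7 and 40.2 CPM in saline. Here 3 MPTP libraries lay above all saline libraries and MPTP 3 lay below them (log2 fold change 0.09, 95% interval -0.14 to 0.32, adjusted p = 0.852).

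**Figure D1:**
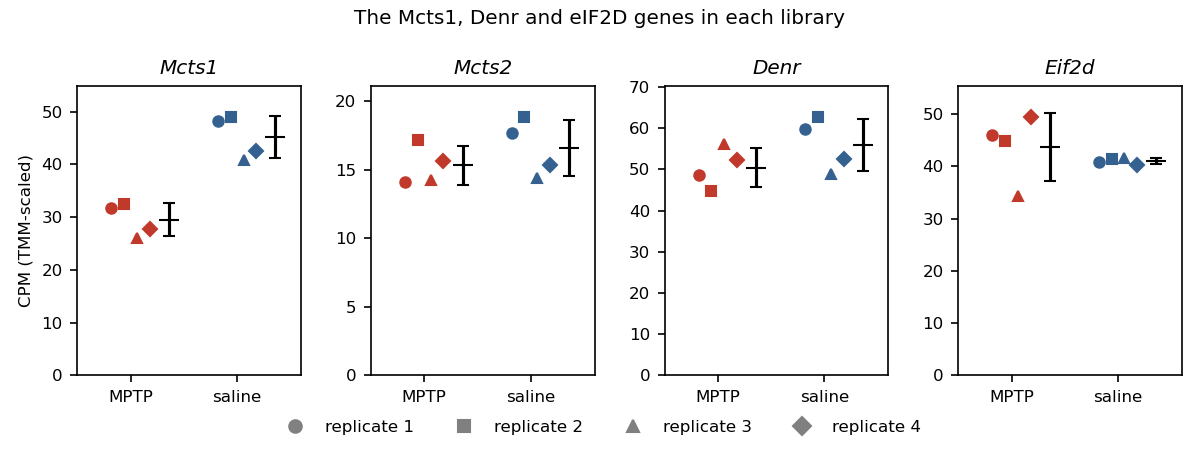
CPM of Mcts1, Mcts2, Denr and Eif2d in each library (y axes start at 0), MPTP left of saline. Symbols mark replicate numbers, black bars the mean and SD of 4 libraries. The Mcts1 groups are separate (at most 32.5 CPM in MPTP, at least 40.9 CPM in saline), while the other 3 genes overlap.

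The levels of Mcts1 can also be given relative to its partner within each library, as a description: the ratios were chosen with the Mcts1 difference known, so they restate it and carry no test. The difference of log2 CPM, Mcts1 minus Denr, was -0.61, -0.46, -1.10 and -0.91 in MPTP replicates 1 to 4 and -0.30, -0.36, -0.26 and -0.30 in saline replicates 1 to 4. Saline libraries lay within a narrow band and all MPTP libraries lay below it. The ratio averaged -0.77 ± 0.29 over the MPTP libraries and -0.30 ± 0.04 over the saline libraries (SD, n = 4 per group). The groups differed by -0.47. Mcts1 minus Eif2d averaged -0.56 ± 0.19 over the MPTP libraries and 0.13 ± 0.13 over the saline libraries (SD, n = 4 per group), which differ by -0.69. Apart from the prior count, the library size cancels in these ratios.

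Non-neuronal signal and the level of Mcts1 can be set side by side for each library. The non-neuronal marker score (the mean log2 CPM over the astrocyte, oligodendrocyte, microglia and endothelial lists, each list weighted equally) averaged 2.88 ± 0.19 over MPTP and 2.66 ± 0.41 over saline libraries (SD, n = 4 per group). The score over dopaminergic markers averaged 7.66 ± 0.11 over MPTP and 7.82 ± 0.29 over saline libraries (SD, n = 4 per group). Saline 3 was lowest of the 8 libraries in dopaminergic score (7.39) and highest in non-neuronal score (3.25), and it had 40.9 CPM of Mcts1, against at most 32.5 CPM in the MPTP libraries. These are descriptions of single libraries, and the part of cell makeup in the Mcts1 difference was not tested by them. Without saline 3 the log2 fold change of Mcts1 was -0.66 (edgeR adjusted p = 0.00637), and it was -0.60 in a fit that held the non-neuronal score as covariate (edgeR adjusted p = 0.0445). The call did not survive the loss of most single libraries: the edgeR adjusted p was 0.0524 without MPTP 1, 0.134 without MPTP 3, 0.185 without MPTP 4, 0.135 without saline 1, 0.1000 without saline 2 and 0.0563 without saline 4, with log2 fold changes between -0.66 and -0.56 over all 8 such fits.

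**Figure D2:**
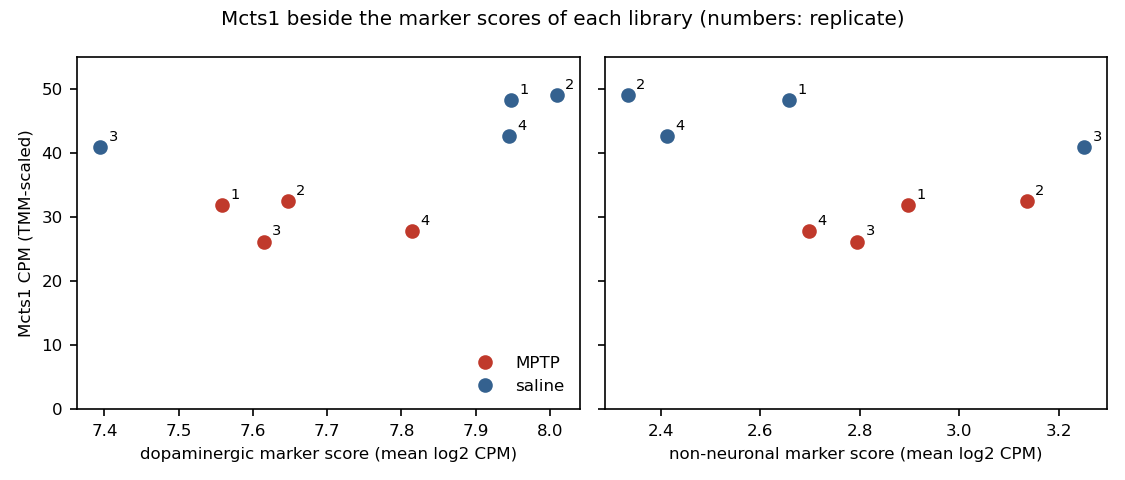
Mcts1 CPM (y axis) against the dopaminergic marker score (left) and the non-neuronal marker score (right), 1 point per library with its replicate number. Saline 3 lies at 7.39 on the left axis and 3.25 on the right axis, with 40.9 CPM of Mcts1.

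For most of the other initiation factor genes the fitted differences were small. Of 53 genes 52 passed the filter on low counts. Of these 1 was lower and 0 were higher at an adjusted p of 0.05 (background over all tested genes 0.0313% lower and 0.075% higher). The 1 called gene, Mcts1, entered the set by name with its call already known, so this count does not bear on the set. At an unadjusted p under 0.05 there were 4 (7.69%), Mcts1, Eif5a2, Eif4b and Eif1ax, where 8.78% of all tested genes had such a p. By direction, 3 were lower (4.5% of all tested genes) and 1, Eif4b, was higher (4.28%). DESeq2 also called 1 of the genes, Mcts1. The log2 fold change was above 0 in 21 genes and below 0 in 31, and its median was -0.05, against 0.00 over all tested genes, of which 50.1% were above 0. The median size of the log2 fold change, sign aside, was 0.07 in the initiation factor genes and 0.13 over all tested genes. Among genes with a mean of at least 5 CPM, the range where most of the factors lie, it was 0.07 for 50 of the factors and 0.10 for all 11347 such genes. The groups did not overlap for 4 of the 52 (Mcts1, Eif5a2, Eif2s3x and Eif4h, 7.69%), against 4.19% of all tested genes; 3 were lower (2.14% of all) and 1, Eif4h, was higher (2.04% of all). For 44 of the 51 genes other than Mcts1, the 95% interval of the log2 fold change lay between -0.5 and 0.5. The other 7 were Eif5a2, Eif1ax, Eif3b, Eif2s3y, Eif3a, Eif4ebp3 and Eif4ebp1.

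**Figure D3:**
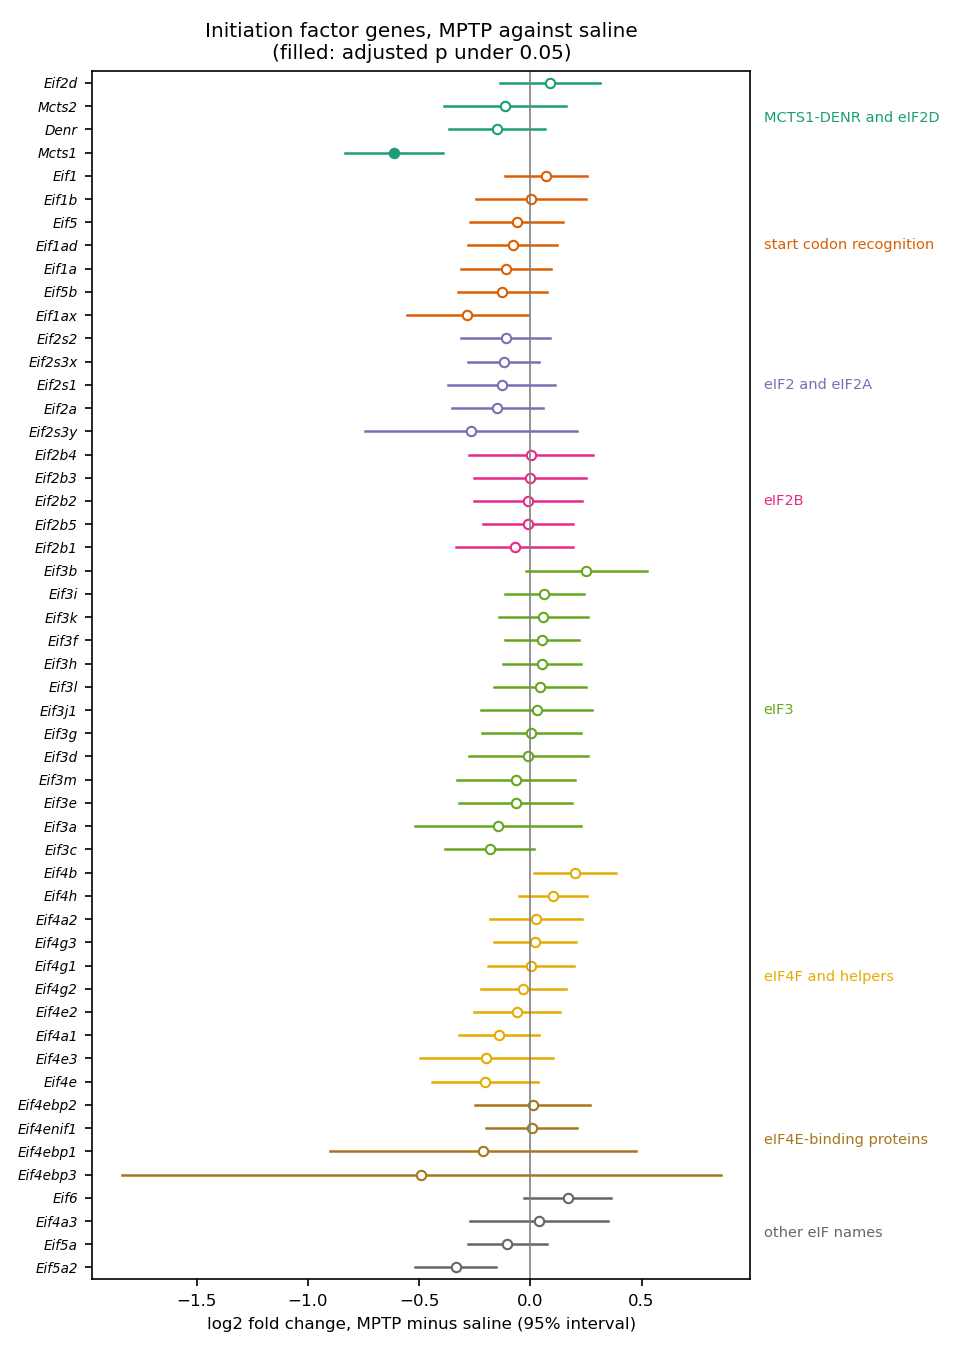
Log2 fold change, MPTP minus saline, of the 52 tested genes with its 95% interval from the quasi-likelihood fit (x axis), grouped by role (colours). Filled points passed an adjusted p of 0.05, which only Mcts1 at -0.61 did.

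Eif5a2 came nearest to Mcts1. It encodes the second isoform of eIF5A, a hypusine-bearing factor that helps ribosomes through difficult peptide bonds and at termination. Eif5a2 had 138, 146, 135 and 154 CPM in MPTP and 203, 185, 163 and 172 CPM in saline. Every MPTP library lay below every saline library, and saline 3 was the lowest of the saline libraries. The log2 fold change was -0.34 (SE 0.09, adjusted p = 0.321). Without saline 3 it was -0.38 with an edgeR adjusted p of 0.0311, so that 2 initiation factor genes, Mcts1 and Eif5a2, were called as lower there, where 1.84% of all tested genes were called, 0.983% lower and 0.853% higher. The abundant isoform Eif5a had 178, 187, 165 and 184 CPM in MPTP and 210, 180, 176 and 200 CPM in saline, with overlap (log2 fold change -0.10, adjusted p = 0.759). The deoxyhypusine synthase and hydroxylase genes Dhps and Dohh, whose products make the hypusine, had log2 fold changes of 0.06 and 0.03.

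Among the factors of start codon recognition the largest difference was that of Eif1ax, the X-linked gene of the scanning factor eIF1A. Eif1ax had 71.3, 63.5, 71.1 and 50.5 CPM in MPTP and 82.0, 90.6, 59.7 and 79.7 CPM in saline. Saline 3 lay among the MPTP libraries, and the log2 fold change was -0.28 (SE 0.13, adjusted p = 0.543), or -0.39 without saline 3 (edgeR adjusted p = 0.0809). Its autosomal counterpart Eif1a had a log2 fold change of -0.11. Eif1, which guards start codon choice, had 243, 297, 254 and 273 CPM in MPTP and 280, 246, 240 and 251 CPM in saline, a log2 fold change of 0.07 (adjusted p = 0.859). Eif5, the GTPase activator of eIF2, and Eif5b, the GTPase of subunit joining, had log2 fold changes of -0.06 and -0.13, and Eif1b had 0.00. The group also counted Eif1ad (-0.08), whose role in start codon choice was not tested here. No gene of these 7 passed the threshold.

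All 5 genes of eIF2 and eIF2A had a log2 fold change below 0 (median -0.13), and none passed the threshold. Eif2s3x, the X-linked gene of the gamma subunit that binds the initiator tRNA, had 110, 113, 115 and 110 CPM in MPTP and 121, 127, 122 and 117 CPM in saline. The groups did not overlap, but the difference was small (log2 fold change -0.12, SE 0.07, adjusted p = 0.669). Eif2s1, whose product is the alpha subunit phosphorylated by the stress kinases, and Eif2s2, the beta subunit gene, had -0.13 and -0.11. Eif2s3y, the Y-linked copy of the gamma gene, had -0.27 with a wide interval (-0.74 to 0.21). Eif2a, which encodes a separate initiator tRNA carrier, had 76.9, 72.7, 90.1 and 71.3 CPM in MPTP and 79.2, 98.3, 83.8 and 83.3 CPM in saline (log2 fold change -0.15, adjusted p = 0.691). The 5 genes of eIF2B, the exchange factor, lay between -0.07 and 0.00. The most abundant of them per length, Eif2b2, had 35.3, 35.1, 41.5 and 37.7 CPM in MPTP and 43.7, 41.5, 31.2 and 34.2 CPM in saline, and its 95% interval was -0.25 to 0.23.

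The 13 measured eIF3 subunit genes (the scaffold complex around the small subunit) were split, with 8 above 0 and 5 below, a median of 0.03, and no call. Eif3b, a core subunit, had the highest value, with 24.9, 30.7, 31.0 and 38.9 CPM in MPTP and 29.7, 27.2, 23.9 and 24.6 CPM in saline (log2 fold change 0.25, SE 0.13, adjusted p = 0.601). MPTP 4 was the highest library and MPTP 1 lay within the saline range. Eif3c, another core subunit, had the lowest value, with 93.9, 80.3, 92.1 and 77.3 CPM in MPTP and 103, 107, 85.7 and 95.2 CPM in saline (log2 fold change -0.18, adjusted p = 0.606). Eif3i, which had the highest level of the subunit genes by RefSeq-matched length (Eif3h by the length over all transcripts), had 187, 171, 195 and 177 CPM in MPTP and 156, 189, 174 and 179 CPM in saline (log2 fold change 0.06, adjusted p = 0.865). For Eif3a, the largest subunit, the spread within each group was wide, between 68.6 and 117 CPM in MPTP and between 81.2 and 130 CPM in saline.

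Within eIF4F and its helpers 5 genes were above 0 and 5 below, and none passed the threshold. Eif4b, which stimulates the helicase, had 201, 180, 226 and 203 CPM in MPTP and 171, 170, 192 and 171 CPM in saline. Saline 3 alone of the saline libraries lay above the lowest MPTP library (log2 fold change 0.20, SE 0.09, adjusted p = 0.513). Eif4h, a second helicase helper, had 234, 230, 234 and 227 CPM in MPTP and 214, 213, 214 and 221 CPM in saline, without overlap but at a log2 fold change of 0.10 (adjusted p = 0.721). Eif4e, the cap-binding protein, had 129, 117, 140 and 113 CPM in MPTP and 141, 181, 124 and 130 CPM in saline (log2 fold change -0.20, adjusted p = 0.628). The helicase Eif4a1 had 120, 129, 119 and 129 CPM in MPTP and 146, 135, 119 and 146 CPM in saline (log2 fold change -0.14, adjusted p = 0.667), with saline 3 again the lowest saline library. Its paralog Eif4a2 had 758, 925, 763 and 824 CPM in MPTP and 938, 754, 769 and 751 CPM in saline (log2 fold change 0.03, 95% interval -0.18 to 0.23).

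The scaffolds Eif4g1, Eif4g2 and Eif4g3 had log2 fold changes of 0.00, -0.03 and 0.02. Eif4e1b, an eIF4E relative, was the 1 gene that failed the filter: it had 0, 0, 14 and 0 counts in MPTP and 0, 0, 0 and 6 counts in saline. A count of 0 in a library allows up to 3 counts, so its absence from the other libraries is known only to that depth. Of the proteins that bind eIF4E and block eIF4G, Eif4ebp2 had 68.2, 86.1, 61.4 and 89.4 CPM in MPTP and 70.7, 73.5, 90.1 and 68.5 CPM in saline (log2 fold change 0.01, 95% interval -0.25 to 0.27). Eif4ebp1 averaged 1.57 CPM in MPTP and 1.82 CPM in saline, and Eif4ebp3 0.683 CPM in MPTP and 0.959 CPM in saline. Their intervals were too wide to exclude a change of a log2 unit in the case of Eif4ebp3 (-1.83 to 0.86) and reached -0.90 in that of Eif4ebp1. Eif6, which keeps large subunits from joining too early, had 36.7, 39.8, 33.5 and 38.8 CPM in MPTP and 32.5, 34.7, 32.4 and 32.8 CPM in saline (log2 fold change 0.17, adjusted p = 0.625).

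Levels between genes were compared as CPM per kilobase of exon (RefSeq-matched GENCODE transcripts). Per length, Eif4a2 led with 256 ± 24.4 in MPTP and 251 ± 28.3 in saline, followed by Eif1 with 202 ± 17.9 in MPTP and 192 ± 13.5 in saline (SD, n = 4 per group), and the spreads of this pair within each group were smaller than the gap between them. In saline the per-length level of Eif4a2 was 3.26 times that of Eif4a1, and that of Eif4g2, a scaffold relative that does not bind eIF4E, was 9.37 times that of Eif4g1. Eif5a2 stood at 0.377 times Eif5a. Mcts1 had 37.7 ± 3.95 CPM per kilobase in MPTP and 57.7 ± 5.17 in saline, Denr 21.6 ± 2.06 in MPTP and 23.9 ± 2.71 in saline, Mcts2 16.8 ± 1.56 in MPTP and 18.2 ± 2.25 in saline, and Eif2d 18.8 ± 2.78 in MPTP and 17.6 ± 0.281 in saline (SD, n = 4 per group). In saline Mcts1 ranked 12 of the 53 genes per length, or 17 with lengths over all GENCODE transcripts, and stood at 2.41 times Denr and 3.18 times Mcts2. With exon lengths over all GENCODE transcripts, an alternative chosen after seeing the data, the ratios became 4.77 for Eif4a2 over Eif4a1, 9.89 for Eif4g2 over Eif4g1, 0.446 for Eif5a2 over Eif5a, 3.13 for Mcts1 over Denr and 1.58 for Mcts1 over Mcts2, so the order within each pair held. For Eif4ebp2 over Eif4e it did not, with 1.90 by the first length and 0.547 by the other. Among eIF3 subunit genes, whose products join one complex, the per-length level in saline ran between 7.96 (Eif3j1) and 155 (Eif3i) by the RefSeq-matched length, and between 4.83 (Eif3e) and 62.0 (Eif3h) by the length over all transcripts.

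**Figure D4:**
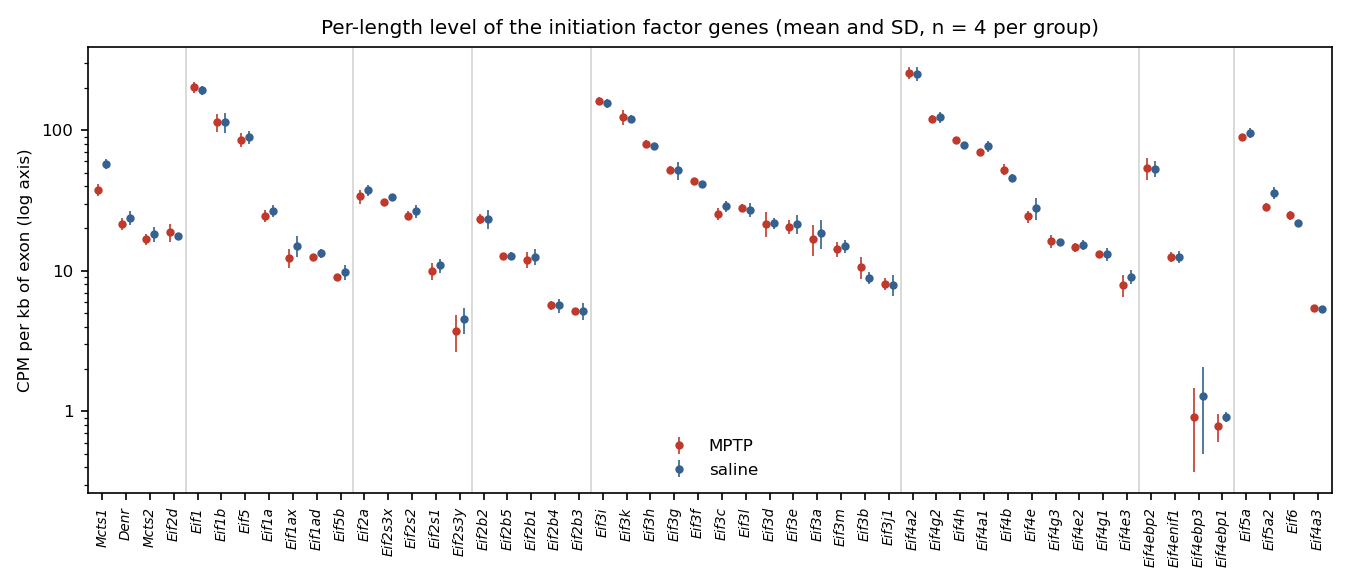
Per-length level (CPM per kilobase of exon, log axis; mean and SD of 4 libraries) of the 52 tested genes in MPTP and saline, ordered by role and by level in saline; vertical lines part the role groups. Mcts1 shows the clearest step between MPTP (37.7) and saline (57.7).

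Some of these counts may be shared with near-identical sequence. Windows of 100 bases identical to a transcript of another gene made up 60.8% of Eif4a1 (leading partner Eif4a-ps4), 47.6% of Eif3j1 (Eif3j2), 35.3% of Eif2s3x (Gm2223), 19.2% of Eif1 and 18.8% of Eif2s2, and 62.8% of Eif4ebp3, which shares exons with a transcript of an overlapping gene. Their values are uncertain to that extent, since the authors' handling of such reads is not given in the sources used here. Of the 53 genes 32 had no such window, Mcts1, Mcts2, Denr, Eif2d, Eif5a2 and Eif4b among them. Exons of 13 of the 53 genes overlapped exons of another gene, and the libraries keep no strand information. The largest shares of exon bases overlapped were 67.3% of Eif4ebp3, 32.9% of Eif3d, 21.7% of Eif3j1, 21.1% of Eif5b, 16.7% of Eif1ad and 14.8% of Eif4e3. Denr shared 2.18% of its exon bases with the gene Gm43518.

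Between libraries of one group the factors varied modestly. For 50 genes with a mean of at least 5 CPM, the median coefficient of variation was 9.29% in MPTP and 9.91% in saline, against 9.70% in MPTP and 11.6% in saline for all genes of that level. The variation was partly shared between genes. MPTP 3 held the highest MPTP value for 25 of the 52 genes, and saline 2 the highest saline value for 31, while saline 3 held the lowest saline value for 26. Such counts were not made over all tested genes, so nothing here marks this pattern as particular to the factors. Eif3a and Eif5 were highest in MPTP 3 and saline 2. Eif4a2 and Eif1, by contrast, were highest in MPTP 2 and saline 1.

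**Figure D5:**
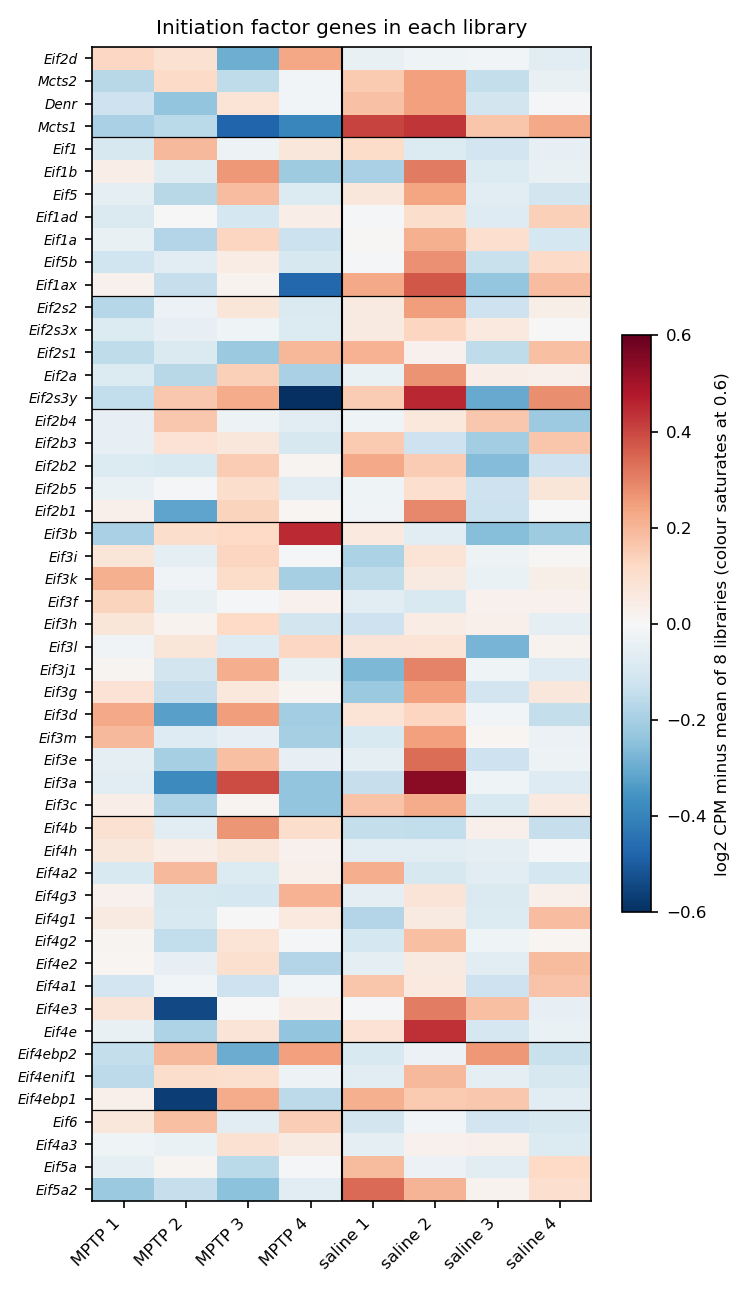
Log2 CPM minus the mean over the 8 libraries for 51 genes (rows, by role; Eif4ebp3 and Eif4e1b left out for low counts) in the MPTP (left) and saline (right) libraries; red is above and blue below the mean. The Mcts1 row is blue in all MPTP libraries and red in all saline libraries, while saline 2 and MPTP 3 are red across many rows.

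Neighbouring parts of the translation pathway gave no call. Of the 8 genes in the elongation list 7 were above 0 (median log2 fold change 0.14). The list includes Eef2k, the gene of the eEF2 kinase rather than of a factor, which had its highest value (0.21). Eef1a1, which brings tRNAs to the ribosome, had 0.16 (adjusted p = 0.576) and Eef2, which drives translocation, 0.13 (adjusted p = 0.669). Eef1a1 had 1086, 1087, 1081 and 1102 CPM in MPTP and 1009, 953, 989 and 935 CPM in saline, without overlap. Of the 9 genes of termination, recycling and rescue, 3 were above and 6 below 0 (median -0.14). The smallest p-values were those of Ltn1, the ubiquitin ligase for stalled chains (-0.28, adjusted p = 0.506), and its partner Nemf (-0.20, adjusted p = 0.606). The list of eIF2 kinases and phosphatase subunits, which also holds Impact and Dnajc3, had 8 genes that were split evenly. The kinase PERK gene Eif2ak3 was at 0.38 (adjusted p = 0.483) and the phosphatase subunit gene Ppp1r15a, also called Gadd34, at 0.43 (adjusted p = 0.506).

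Of the 21 cap and poly(A) partner genes 6 were above and 15 below 0 (median -0.08). Paip1, a poly(A)-binding protein partner that stimulates translation, had 39.5, 37.2, 38.4 and 27.7 CPM in MPTP and 53.9, 52.8, 42.6 and 46.1 CPM in saline, without overlap. Its log2 fold change was -0.45 (SE 0.12, adjusted p = 0.321), and -0.51 without saline 3 (edgeR adjusted p = 0.0371). Pabpc1, the poly(A)-binding protein itself, stood at 0.23 on the log2 scale (adjusted p = 0.582). The 23 mTORC1 pathway genes, 7 above and 16 below 0, had a median of -0.04, with Mtor at -0.18 (adjusted p = 0.606) and Sesn3 at 0.12 (adjusted p = 0.712). The 9 mitochondrial translation factor genes had a median of 0.03, with Mtrf1l at -0.30 (adjusted p = 0.631) and Gfm1 at -0.10 (adjusted p = 0.802). In these 7 lists, with 80 genes tested, 0 genes passed the threshold by edgeR and 4 (5%) had an unadjusted p under 0.05, where 8.78% of all tested genes had one. The medians stand beside 0.00 over all tested genes. The groups did not overlap for 1 gene each of the elongation, termination and eIF2 kinase lists, all higher in MPTP. In the cap and poly(A) list 3 genes did not overlap, all lower, and in the other lists 0. Among all tested genes 4.19% did not overlap.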

How the data were processed

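RNA from TRAP was sequenced for 4 MPTP and 4 saline libraries. The cDNA kit, which amplifies small RNA inputs, keeps no strand information, and reads were single-end with 100 bases, per the labels' protocols. Raw gene counts for all libraries stand in 1 table that the authors deposited. TopHat2 2.0.8 and mm10 are named in the submitters' processing notes; no counting tool, annotation or strand setting is given in the sources used here. Counts carry no molecular identifiers, so counting error is a lower bound.

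Counts were analysed with edgeR 4.0.16 (R 4.3.3): TMM scaling, the filterByExpr filter (15999 genes kept), the robust quasi-likelihood F-test and Benjamini-Hochberg adjustment over all tested genes, with a threshold of 0.05. A positive log2 fold change means higher in MPTP, and SE is its size over the square root of F. Log2 CPM used a prior count of 2. The test was tested on simulated counts with 200 changed genes. Of the changed genes that passed the filter it called 12.2% at a 1.25-fold change and 52% at 1.5-fold. It called 78% at 2-fold and 84% at 4-fold, and 6 of its 119 calls were false. Alternatives used limma 3.58.1 and DESeq2 1.42.0. Positions, lengths and transcripts are from GENCODE vM21 (GRCm38), to which all 53 genes were matched by Entrez identifier.

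Nothing in the labels says that numbered replicates were separate animals, so p-values measure the spread between these libraries, which may be technical. No pair of libraries of the same group agreed within sampling noise (chi-square per degree of freedom at least 31.9). Pairs across the groups were not compared. Genes without a symbol held at most 0.056% of a library's counts.

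The members, lists and tests were chosen with earlier results of these data known. Values by library are given for Mcts1, Mcts2, Denr and Eif2d, the 10 other members with the smallest p, the member of each role with the highest per-length level and any member with a library at 0. Eif4h, Eif3a, Eef1a1 and Paip1 were given in this way after their values were seen. From each further list the 2 genes with the smallest p are named. Libraries were multiplexed in pairs, per the labels' protocols, and the pairs are not named there, so no within-run value could be given.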

Additional observations from a re-analysis of the deposited data

Results flagged for a closer look

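In 108 groups of 4 libraries (52 genes and 2 ratios in each of the 2 treatments) 1 library lay far from the other 3 in 6 cases by Dixon's 95% limit, and chance gives such a gap in about 1 in 20 groups. In MPTP, replicate 2 was low for Eif4e3 (14.5 CPM, against 21.2 to 22.3 in the others) and high for Eif2b4 (15.2 CPM, against at most 13.3). In saline, replicate 3 was high for Eif4b (192 CPM, against 170 to 171), and replicate 1 was high for Eif4a2 (938 CPM, against 751 to 769). Saline replicate 2 was high for Eif3a (130 CPM, against 81.2 to 87.7) and for Eif4enif1, the eIF4E transporter gene (58.9 CPM, against 48.1 to 49.5).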

How the results depend on the processing

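All 16 alternative fits gave Mcts1 a log2 fold change below 0. It kept its call with DESeq2, voom, both other scalings, both other filters, the non-neuronal covariate and the replicate block, and lost it in 6 of the 8 fits that leave out a library (log2 fold change -0.66 to -0.56 over the 8). The members called numbered 0 to 2 over those 8 fits and 1 in each other alternative, and the median log2 fold change of the members ran between -0.08 and 0.02. The number of all genes called was 11 with a mean CPM of at least 5, 56 with DESeq2, and 8 to 297 without a single library (297 without saline 3). Same-numbered libraries showed no shared deviation from their group means, with correlations of -0.02, -0.12, -0.03 and 0.04. These values cannot tell whether such libraries were handled together. With the replicate block Mcts1 was at -0.62 (edgeR adjusted p = 0.0443), and 14 genes in all were called. The same-numbered differences averaged -0.47 for Mcts1 minus Denr and -0.69 for Mcts1 minus Eif2d. These averages equal the differences of the group means whatever the pairing, so they add no check. Without 1 library Mcts1 minus Denr ran between -0.57 and -0.36. Eif5a2 and Paip1 passed only without saline 3. Signs turned for Eif2b2 (0.0026 with upper quartile scaling, 0.0688 with the covariate, -0.0903 to 0.0731 without 1 library), Eif4ebp2 (-0.0594 with the covariate, -0.0729 to 0.105 without 1 library), Eif4a2 (-0.0383 to 0.113 without 1 library) and Dohh (-0.0351 to 0.0955 without 1 library), none called; the cause was not tested. Depth limits Eif4ebp1, Eif4ebp3 and Eif4e1b.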
